A study of Mus musculus with 4 samples.

Results

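The genes described here encode the parts that hold the epidermis to the dermis: 11 integrin subunits, 5 proteins of the hemidesmosome or its integrin adaptors, 8 laminin chains, 5 collagen chains, nidogens and perlecan, and 3 proteins of the Fraser complex. They are 35 genes, chosen by name with earlier results of these data known. They come from 19938 genes that had a probe set annotated to a single gene. Each of the 35 had 1 such probe set. Skin RNA of mouse embryos at E16.5, where E stands for embryonic day, was measured on Affymetrix whole-transcript arrays, with 2 arrays of Ovol2 BT and 2 of control skin and RNA of 2 mice on each. Ovol2 BT embryos carried TRE-Ovol2-Flag, a tetracycline-responsive transgene for the zinc finger transcription factor Ovol2, together with K5-tTA, a transactivator under the keratin 5 promoter, which is active in basal keratinocytes. Control embryos were wild type or had TRE-Ovol2-Flag without K5-tTA, and embryos with only K5-tTA were not analysed here. The labels give the strain as FVB/N for Ovol2 BT and CB6F1 for control, so strain and transgene cannot be told apart, although littermates are also said to have shared cages. The comparison asks what differs early, when the skin of both genotypes still looked alike in the submitters' description.

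Basal keratinocytes sit on a basement membrane, a thin sheet in which laminin and type IV collagen networks are joined by nidogens and perlecan. Integrins, heterodimers of an alpha and a beta subunit, bind this sheet from the cell side. In the hemidesmosome the dimer of Itga6 and Itgb4 binds laminin outside and plectin and Dst inside, and loss of these parts in people and mice causes skin blistering. The Fraser complex and type VII collagen fasten the sheet to the dermis below, the first mainly before birth.

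All values below are levels on the log2(intensity + 16) scale, and a difference is the Ovol2 BT mean minus the control mean on that scale. Levels can be compared between arrays for a gene, but not between genes, since probe sets differ in brightness. Ovol2 read 12.93 and 12.96 on the Ovol2 BT arrays and 7.59 and 8.29 on the control arrays, as the labels state. All samples are labelled female, yet the Y-linked genes Kdm5d, Eif2s3y and Uty read between 9.20 and 10.40 on Ovol2 BT replicate 1, between 4.24 and 4.80 on Ovol2 BT replicate 2, between 9.19 and 10.13 on control replicate 1 and between 5.32 and 6.17 on control replicate 2. This split of the Y-linked genes has the same direction in both genotypes and follows the replicate number. Xist read 8.36 and 10.80 on the Ovol2 BT arrays, against 7.07 and 13.16 on the control arrays. It was higher on replicate 2 in both genotypes, with a wider gap between the control arrays. Ovol2 BT replicate 2 stood apart: 893 of 14953 genes lay over 2-fold below the mean of the other arrays there, against 33 on Ovol2 BT replicate 1. The skin markers fixed for basal keratinocytes and dermal fibroblasts were read on every array, all 6 of 6 and 9 of 9 on the arrays being above the filter on dim genes.

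None of the 34 members tested differed between genotypes in limma's moderated test, whose adjusted p runs over all 14953 genes tested (adjusted p between 0.906 and 0.991, n = 2 arrays per group). The background was 4 genes, or 0.0268% of all genes tested, so a count of 0 among 34 is near it. At an unadjusted p under 0.05 stood 1 member, Frem1, against 4.23% of all genes tested (1.74% lower in Ovol2 BT, as Frem1 was). The remaining member, the collagen chain Col4a6, was too dim to be tested. Differences were positive for 17 members and negative for 17, and their median was -0.00 (-0.00433), beside 0.03 over all genes tested. The values of the genotypes did not overlap for 11 of 34 members, 4 higher and 7 lower in Ovol2 BT, beside 34.2% of all genes tested (20.1% higher and 14.1% lower). The combined share of the members, 32.4%, was near that of all genes. By direction, a smaller share of members was higher and a larger share was lower, a split that was not tested.

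**Figure D1:**
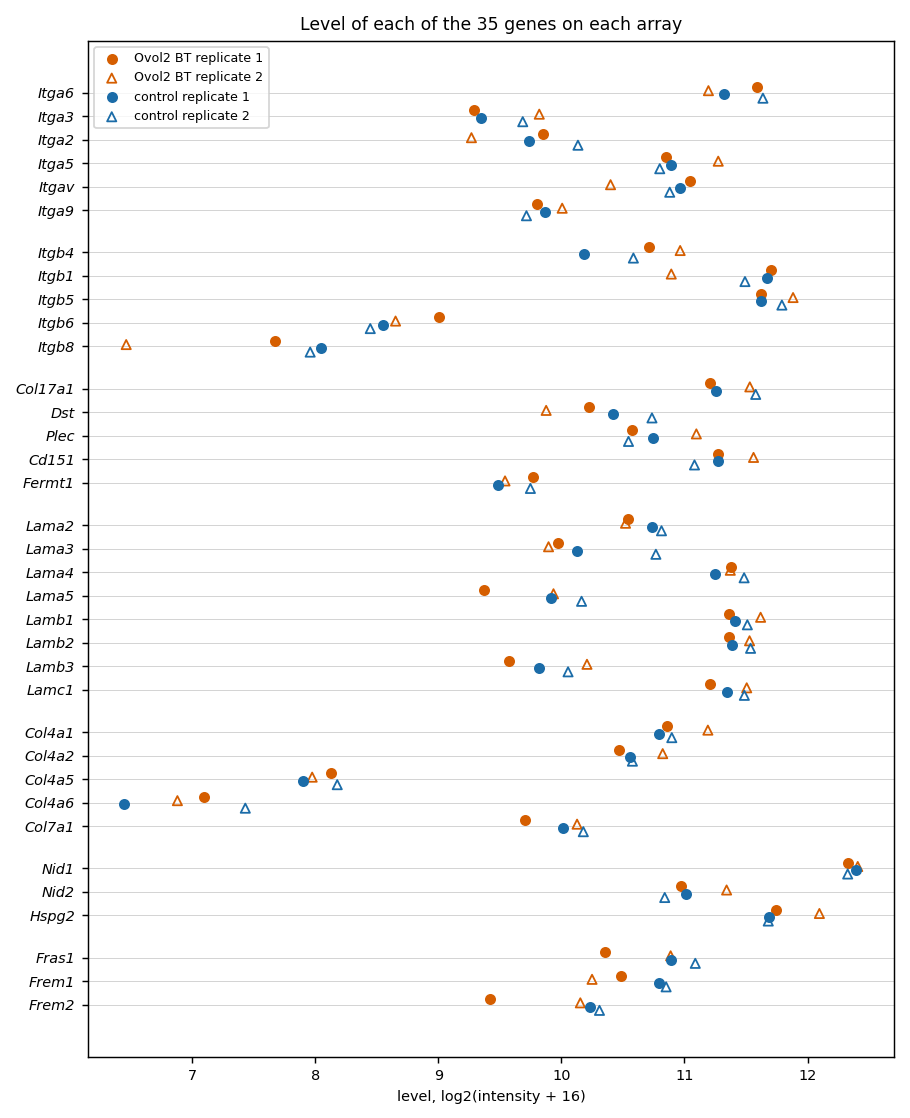
Level of each gene (log2(intensity + 16)) on the 2 Ovol2 BT arrays (orange) and the 2 control arrays (blue), 1 row per gene, grouped by role from integrin alpha subunits at the top to the Fraser complex at the bottom. Points of a row are offset vertically so that they can be told apart. The rows where both orange symbols lie left of both blue ones are Itgb8, Dst, Lama2, Lama3, Fras1, Frem1 and Frem2.

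The size of the intervals sets what can be said. For 27 of 34 members the 95% interval of the difference lay within 2-fold either way (83.5% of all genes tested). The other 7, whose intervals reached past 2-fold on the side of their difference, were Itga2, Itgb4, Itgb8, Dst, Lama3, Lama5 and Frem2. With 2 arrays per group, differences of under 2-fold fit within most of these intervals, and a missed threshold does not show that levels were equal. For 30 of 34 members the larger gap between replicates of a genotype exceeded the difference between genotypes (79.8% of all genes tested). The exceptions were Itgb4, Dst, Lama2 and Frem1.

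**Figure D2:**
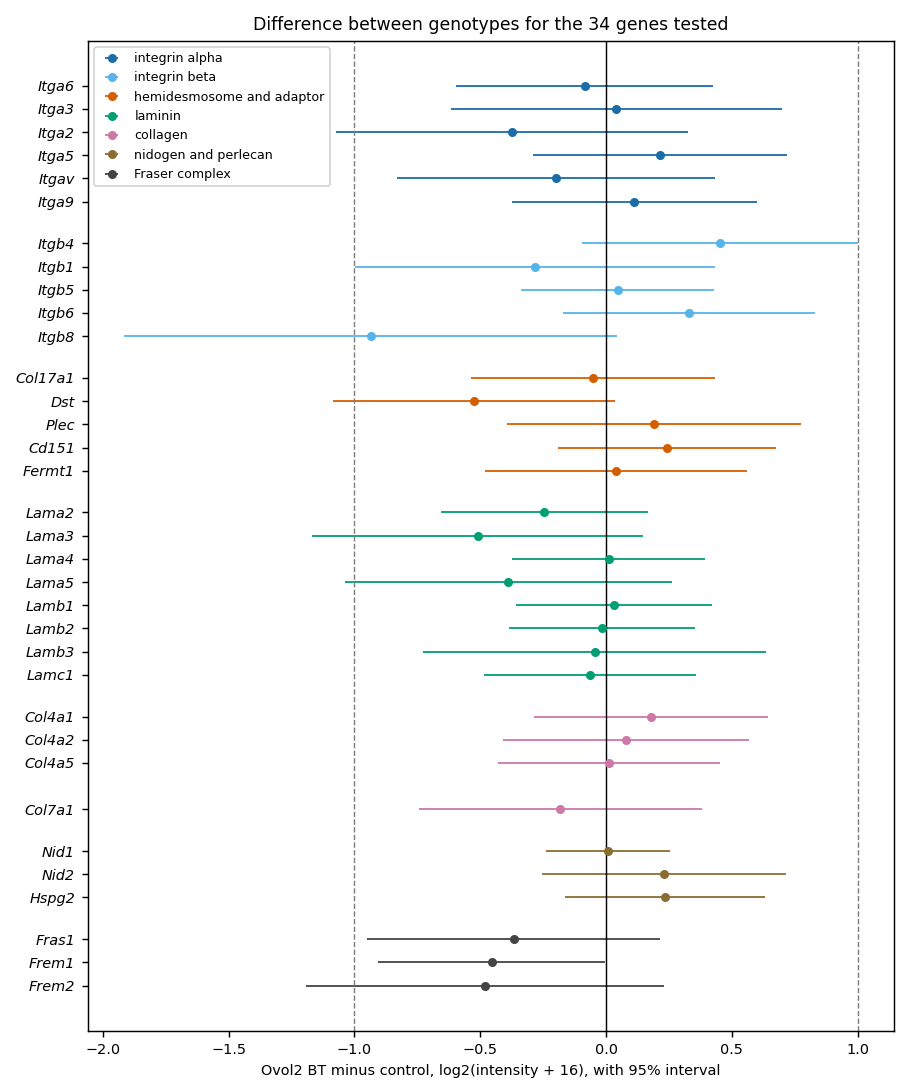
Ovol2 BT minus control for the 34 genes tested (points, log2(intensity + 16)) with the 95% interval of limma's moderated test (bars), coloured by role. Dashed lines mark a 2-fold difference either way. The interval of Frem1 ends just below 0 at -0.91 and -0.00 (-0.00398), and all other intervals cross 0.

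The differences of hemidesmosome genes had either sign, and none of these genes passed the threshold. Itgb4, the beta subunit found in hemidesmosomes, read 10.71 and 10.96 on the Ovol2 BT arrays, against 10.18 and 10.58 on the control arrays. Both Ovol2 BT arrays were above both control arrays. Its difference was 0.45 (SE 0.22, 95% interval -0.09 to 1.001, limma adjusted p = 0.906), and it was 0.25 without control replicate 1 and 0.65 without control replicate 2. Its partner Itga6 read 11.59 and 11.19 on the Ovol2 BT arrays, against 11.32 and 11.64 on the control arrays, so the ranges of the genotypes overlapped in part. The difference of Itga6 was -0.09 (SE 0.20, 95% interval -0.59 to 0.42). Col17a1, the transmembrane collagen of the hemidesmosome, read 11.20 and 11.53 on the Ovol2 BT arrays, against 11.26 and 11.58 on the control arrays. Its genotypes overlapped, and its difference was -0.05 (SE 0.19, 95% interval -0.535 to 0.432).

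Inside the cell, Dst (the plakin also known as bullous pemphigoid antigen) had the largest difference of the hemidesmosome group. It read 10.23 and 9.88 on the Ovol2 BT arrays, against 10.42 and 10.74 on the control arrays. Both Ovol2 BT arrays were below both control arrays, and the difference was -0.53 (SE 0.22, 95% interval -1.09 to 0.03, limma adjusted p = 0.906). It was -0.70 without Ovol2 BT replicate 1 and -0.35 without Ovol2 BT replicate 2. Plec, the plakin that binds Itgb4 to keratin filaments, read 10.57 and 11.10 on the Ovol2 BT arrays, against 10.75 and 10.54 on the control arrays. Here only Ovol2 BT replicate 2 was above the control range, and the difference was 0.19 (SE 0.23). The tetraspanin Cd151, which associates with laminin-binding integrins, read 11.28 and 11.56 on the Ovol2 BT arrays, against 11.27 and 11.08 on the control arrays. Its values did not overlap, by a narrow margin on the replicate 1 arrays, and its difference was 0.24 (SE 0.17). Fermt1, a cytoplasmic activator of integrins that is lost in Kindler syndrome, had overlapping values and a difference of 0.04 (SE 0.21).

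The basal keratins, which mark the cells that make hemidesmosomes, stood beside these genes as follows. Krt5 read 12.88 and 12.96 on the Ovol2 BT arrays, against 13.80 and 13.77 on the control arrays (difference -0.87, SE 0.06, limma adjusted p = 0.0597). Krt14 differed by -0.66 (SE 0.11, adjusted p = 0.432) and Krt15 by -1.41 (SE 0.13, adjusted p = 0.101). The summed intensity of the 6 basal keratinocyte markers was 22339 and 23993 on the Ovol2 BT arrays and 37187 and 38228 on the control arrays. This sum is on the linear scale, where these keratins, the brightest of the 6 markers, weigh most, so it largely repeats their differences. The other 3 of these markers, Trp63, Cdh3 and Fgfr2, differed by -0.21, 0.06 and -0.38, with overlapping values for Trp63 and Cdh3 and lower values on both Ovol2 BT arrays for Fgfr2. None of the 6 markers passed the threshold, and their part in the members' values was not tested. In skin as a whole, fewer cells of a type and less RNA per cell cannot be told apart. The difference between the keratins and Itga6, Itgb4 or Col17a1 was not tested either.

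Among the other integrins of epidermis, which pair with Itgb1 or with Itgav, the values of Ovol2 BT replicate 2 were often the extreme ones. Itgb1, the beta subunit shared by many dimers, read 11.71 and 10.89 on the Ovol2 BT arrays, against 11.67 and 11.49 on the control arrays. Replicate 1 of Ovol2 BT was at the top and replicate 2 at the bottom of the 4 arrays, and the difference of -0.28 (SE 0.29) became 0.13 without Ovol2 BT replicate 2. Itga2, which forms a collagen receptor with Itgb1, read 9.85 and 9.27 on the Ovol2 BT arrays, against 9.73 and 10.13 on the control arrays. Its difference was -0.37 (SE 0.28), and -0.08 without Ovol2 BT replicate 2. Itga3, the laminin-binding partner of Itgb1 in keratinocytes, read 9.29 and 9.82 on the Ovol2 BT arrays, against 9.34 and 9.69 on the control arrays. The genotypes overlapped, with a difference of 0.04 (SE 0.26). Itga5, the alpha subunit of the fibronectin receptor, differed by 0.22 (SE 0.20), of which 0.00 (0.00127) remained without Ovol2 BT replicate 2. Itga9, which binds tenascin and other matrix ligands, differed by 0.11 (SE 0.19).

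The Itgav dimers, with Itgb5, Itgb6 or Itgb8, bind vitronectin, fibronectin or latent TGF-beta, which the dimers with Itgb6 and Itgb8 can activate. Itgav read 11.05 and 10.40 on the Ovol2 BT arrays, against 10.97 and 10.88 on the control arrays. Only Ovol2 BT replicate 2 was below the control range, and the difference was -0.20 (SE 0.25), or 0.13 without that array. Itgb5 had overlapping values and differed by 0.05 (SE 0.15). Itgb6 and Itgb8 had opposite signs. Itgb6, an epithelial subunit, read 9.00 and 8.65 on the Ovol2 BT arrays, against 8.55 and 8.45 on the control arrays. Both Ovol2 BT arrays were above both control arrays, with a difference of 0.33 (SE 0.20, 95% interval -0.17 to 0.83, limma adjusted p = 0.906). It was 0.15 without Ovol2 BT replicate 1 and 0.50 without Ovol2 BT replicate 2.

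Itgb8 had the largest difference of the 34 members tested. It read 7.67 and 6.46 on the Ovol2 BT arrays, against 8.05 and 7.96 on the control arrays. Both Ovol2 BT arrays were below both control arrays, but they differed from each other by more (1.21 in size) than the genotypes did. On Ovol2 BT replicate 2 the gene was under 7.32, the mean level below which genes were not tested. The difference was -0.94 (SE 0.39, 95% interval -1.91 to 0.04, limma adjusted p = 0.906), and it was -0.33 without Ovol2 BT replicate 2.

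**Figure D3:**
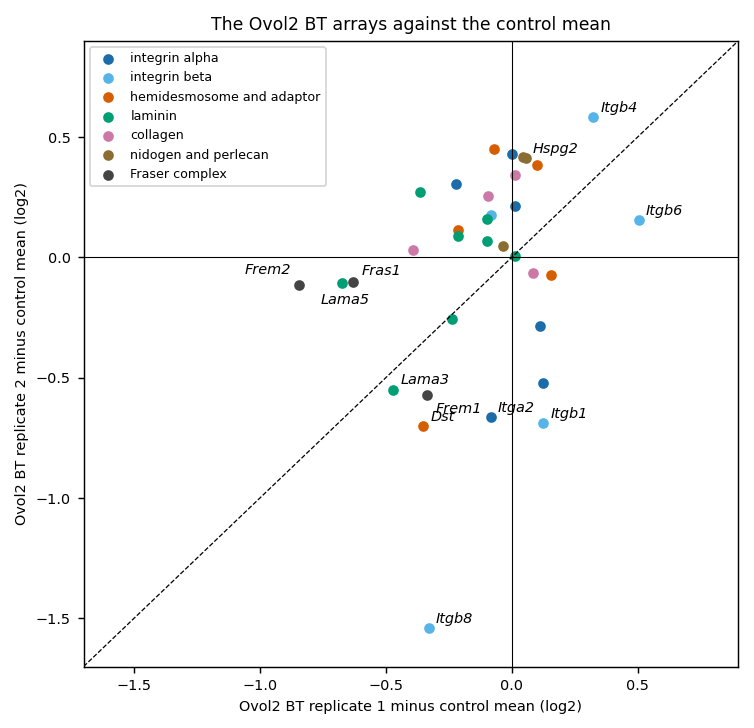
Deviation of each of the 34 genes tested from the control mean (log2) on Ovol2 BT replicate 1 (horizontal) and Ovol2 BT replicate 2 (vertical), coloured by role. On the dashed line both Ovol2 BT arrays deviate equally. Itgb8 lies at -0.33 and -1.54 and Itgb1 at 0.13 and -0.69, while Frem2 lies at -0.85 and -0.12.

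No laminin chain passed the threshold, and the largest of their 8 differences were negative ones of the alpha chains Lama3 and Lama5. Lama3, the alpha chain of the keratinocyte laminin bound by the hemidesmosome, read 9.97 and 9.90 on the Ovol2 BT arrays, against 10.12 and 10.77 on the control arrays. The genotypes did not overlap, and the 2 control arrays lay 0.64 apart. Its difference of -0.51 (SE 0.26, 95% interval -1.17 to 0.15, limma adjusted p = 0.906) was -0.83 without control replicate 1 and -0.19 without control replicate 2. Lamb3, the beta chain of the same laminin, read 9.57 and 10.21 on the Ovol2 BT arrays, against 9.81 and 10.05 on the control arrays. The Ovol2 BT arrays enclosed the control arrays, and the difference was -0.05 (SE 0.27).

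Lama5, the alpha chain of the other main epidermal laminin, read 9.37 and 9.94 on the Ovol2 BT arrays, against 9.92 and 10.16 on the control arrays. Ovol2 BT replicate 1 was the low array, and the difference of -0.39 (SE 0.26) was -0.10 without it. Lama2, the alpha chain of muscle and nerve basement membranes, read 10.54 and 10.52 on the Ovol2 BT arrays, against 10.74 and 10.81 on the control arrays. Both pairs of replicates lay close together, within 0.08 of each other, and the difference was -0.25 (SE 0.16, 95% interval -0.66 to 0.17, limma adjusted p = 0.906). It moved little when any array was left out, between -0.28 and -0.21. The summed intensity of 11 skeletal muscle markers was 36046 and 66089 on the Ovol2 BT arrays and 62584 and 37376 on the control arrays. That of 6 Schwann cell and nerve markers was 4517 and 5326 on the Ovol2 BT arrays and 4869 and 5238 on the control arrays. Lama4, the alpha chain of vessel walls, differed by 0.01 (SE 0.15). The shared chains Lamb1, Lamb2 and Lamc1 differed by 0.03 (SE 0.16), -0.02 (SE 0.15) and -0.06 (SE 0.17), and their genotypes overlapped. The 12 endothelial markers had a median difference of 0.16, with 10 positive and 2 negative and none past the threshold, beside a median of 0.03 over all genes tested. The 10 macrophage and myeloid markers had a median of 0.46, with 8 positive, and summed to 12916 and 14205 on the Ovol2 BT arrays and 10873 and 9488 on the control arrays. The summed intensity of 4 erythroid markers was 3958 and 14770 on the Ovol2 BT arrays and 3371 and 6753 on the control arrays. None of the markers of these lists passed, and their part in the members' values was not tested.

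Values of the genotypes overlapped for all 5 collagen chains, of which Col4a6 was too dim to be tested. Overlap was also the more common case over all genes tested, of which 34.2% did not overlap. Col4a1 and Col4a2, which form the type IV collagen found in nearly all basement membranes and are transcribed in opposite directions from a shared promoter region, had the same order of arrays at the top. Col4a1 read 10.86 and 11.19 on the Ovol2 BT arrays, against 10.80 and 10.90 on the control arrays, and Col4a2 read 10.47 and 10.82 on the Ovol2 BT arrays, against 10.56 and 10.58 on the control arrays. Both were highest on Ovol2 BT replicate 2, and their differences were 0.18 (SE 0.18) and 0.08 (SE 0.20). In the RefSeq promoter windows of GRCm38.p6, 250 bases before to 50 after each annotated start, those of the pair overlapped by 78 bases.

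Col4a5 and Col4a6, another such pair on the X chromosome, make a further type IV collagen of the epidermal basement membrane. Col4a5 read 8.12 and 7.97 on the Ovol2 BT arrays, against 7.90 and 8.18 on the control arrays, a difference of 0.01 (SE 0.18). Col4a6 read 7.10 and 6.88 on the Ovol2 BT arrays, against 6.45 and 7.43 on the control arrays. The control arrays, which differed in Y-linked signal, enclosed the Ovol2 BT arrays for both genes. Col7a1, the type VII collagen of anchoring fibrils whose loss causes dystrophic blistering, read 9.70 and 10.13 on the Ovol2 BT arrays, against 10.01 and 10.18 on the control arrays. Ovol2 BT replicate 1 was the low array, and the difference of -0.18 (SE 0.22) was 0.03 without it.

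None of the linkers of the sheet passed the threshold. Nid1, which joins laminin to type IV collagen, read 12.33 and 12.41 on the Ovol2 BT arrays, against 12.40 and 12.33 on the control arrays. It had the narrowest interval of the 34 members, -0.24 to 0.25 around a difference of 0.01 (SE 0.10). Nid2 differed by 0.23 (SE 0.19), was above the control range only on Ovol2 BT replicate 2, and differed by 0.04 without that array. Hspg2, which encodes the proteoglycan perlecan, read 11.74 and 12.10 on the Ovol2 BT arrays, against 11.69 and 11.68 on the control arrays. Its genotypes did not overlap, and the difference was 0.23 (SE 0.16, limma adjusted p = 0.906), but it was 0.06 without Ovol2 BT replicate 2.

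The 3 members of the Fraser complex had lower values on both Ovol2 BT arrays, for Fras1 by a margin too small to show at 2 decimals. Fras1, Frem1 and Frem2 are large extracellular proteins that depend on each other for deposition under the embryonic epidermis, and mutations in them cause blistering in mouse embryos and, in people, Fraser syndrome or related disorders. Frem1 read 10.49 and 10.25 on the Ovol2 BT arrays, against 10.79 and 10.85 on the control arrays, with a difference of -0.45 (SE 0.18, unadjusted p = 0.0486, limma adjusted p = 0.906). Frem2 read 9.42 and 10.15 on the Ovol2 BT arrays, against 10.23 and 10.31 on the control arrays, with a difference of -0.48 (SE 0.28, limma adjusted p = 0.906). Fras1 read 10.36 and 10.89 on the Ovol2 BT arrays, against 10.89 and 11.09 on the control arrays, with a difference of -0.37 (SE 0.23, limma adjusted p = 0.906). For Frem2 and Fras1 the low array was Ovol2 BT replicate 1, for Frem1 it was Ovol2 BT replicate 2. Without Ovol2 BT replicate 1 the differences of Frem2 and Fras1 were -0.12 and -0.10, while that of Frem1 was -0.57, and without Ovol2 BT replicate 2 that of Frem1 was -0.34. None of the 3 passed the threshold, and both Ovol2 BT values lay below both control values for 14.1% of all genes tested.

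Grip1, a scaffold protein that brings Fras1 and Frem2 to the basal side of the cell, was outside the members but in the list of other basement membrane genes. It read 8.04 and 8.03 on the Ovol2 BT arrays, against 8.39 and 8.59 on the control arrays. Its difference was -0.46 (SE 0.17, unadjusted p = 0.0361, limma adjusted p = 0.906), and it lay between -0.55 and -0.36 when any of the 4 arrays was left out. Frem3, the remaining gene of the family, was too dim to be tested. Npnt (nephronectin), a basement membrane ligand of the integrin with Itga8, differed by 0.06 (SE 0.22) and Itga8 by -0.26 (SE 0.26). Grip1 was itself named because its difference was the largest in size of its list. The other genes here were picked as relatives of the Fraser complex after their values were seen.

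Other genes of the pathway gave no call either. In limma 0 of 8 other integrins passed, as did 0 of 22 focal adhesion genes, 0 of 22 other basement membrane genes and 0 of 17 genes of basement membrane assembly and turnover. At an unadjusted p under 0.05 there was 1 gene in each list, 2 of them with positive and 2 with negative differences. Over all genes tested, 0.0268% passed and 4.23% had an unadjusted p under 0.05 in limma, so these counts are near the background. The list medians were 0.09, 0.10, 0.06 and 0.14 in the same order, beside 0.03 over all genes tested. In the assembly and turnover list 14 of 17 differences were positive and the genotypes did not overlap for 7, all 7 higher in Ovol2 BT, beside 8140 positive differences among all 14953 genes tested and the 20.1% given above. P4ha2, a prolyl hydroxylase subunit of collagen synthesis, differed by 0.49 (SE 0.18) and the gelatinase Mmp9 by 0.34 (SE 0.29). Mmp9 was dim, near the filter level of 7.32. It read 7.24 and 8.08 on the Ovol2 BT arrays, against 7.42 and 7.22 on the control arrays. Against the control mean Mmp9 deviated by -0.08 on Ovol2 BT replicate 1 and by 0.76 on Ovol2 BT replicate 2. Among focal adhesion genes Tns4, a tensin that binds beta integrin tails, read 8.68 and 9.00 on the Ovol2 BT arrays, against 9.38 and 10.13 on the control arrays, a difference of -0.91 (SE 0.30, unadjusted p = 0.0268, limma adjusted p = 0.906). Lims1, an adaptor of integrin-linked kinase, differed by -0.64 (SE 0.49), which was 0.11 without Ovol2 BT replicate 2. Itga11, a collagen-binding subunit of fibroblasts, differed by 0.52 (SE 0.20) and Itga4, a fibronectin-binding subunit, by -0.62 (SE 0.35), or -0.15 without Ovol2 BT replicate 2. In the other basement membrane list the largest differences were those of Grip1 and of the matrix protein Tinagl1 (0.28, SE 0.17).

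**Figure D4:**
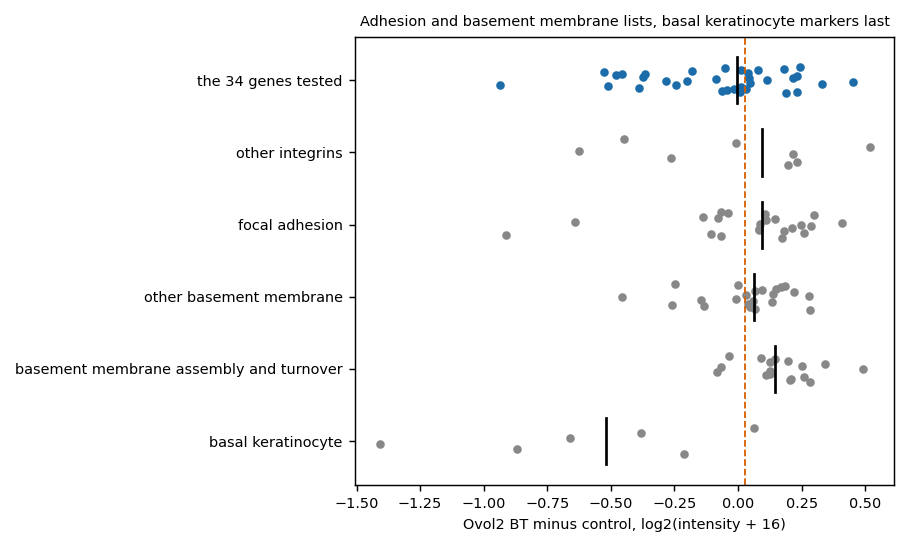
Ovol2 BT minus control (log2(intensity + 16)) of each gene tested in the members (blue), 4 further adhesion and basement membrane lists and the basal keratinocyte markers (grey). Black bars are list medians (-0.00 for the members and -0.52 for the basal keratinocyte markers) and the dashed line is the median of 0.03 over all genes tested.

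The spread between replicates was uneven. The median gap between replicates of the members was 0.35 for the Ovol2 BT arrays and 0.17 for the control arrays in size, beside 0.28 and 0.13 over all genes tested. The members with the largest Ovol2 BT gaps were Itgb8 (replicate 2 minus replicate 1, -1.21), Itgb1 (-0.81) and Frem2 (0.73). Without Ovol2 BT replicate 1, with a lone Ovol2 BT array assumed to vary like the controls, 6 members passed: Itgav, Itgb1, Itgb8, Dst and Frem1 were lower and Hspg2 higher. That fit called 16.3% of all genes tested, so 6 of 34 is near its background. Without Ovol2 BT replicate 2 none of the 34 passed, and 0.736% of all genes tested did.

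**Figure D5:**
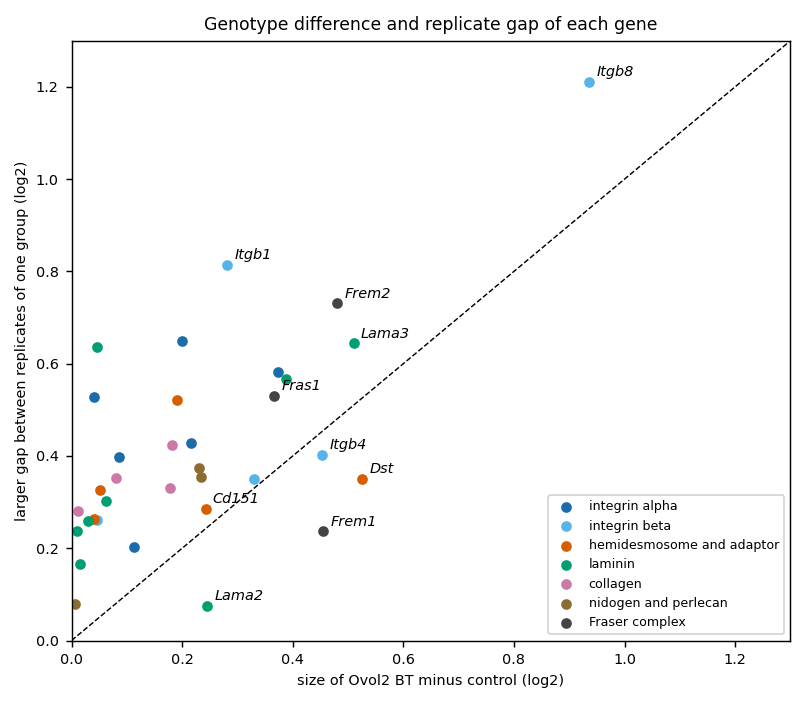
Size of the difference between genotypes (horizontal, log2) against the larger of the gaps between Ovol2 BT replicates and between control replicates (vertical, log2), for the 34 genes tested, coloured by role. The 4 genes below the dashed line of equality are Itgb4, Dst, Lama2 and Frem1.

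The 3 members with the smallest unadjusted p, Frem1, Itgb8 and Dst, are shown with upstream sequence because Ovo proteins are known to bind a core CCGTTA and the Zeb and Snail repressors the E-box CACCTG. RefSeq promoter windows existed for 27 of the 35 members, and the 250 bases before each annotated start were searched for both motifs on both strands. The motif CCGTTA was in 1 of 33 member windows, that of an internal start of Dst, beside 2.18% of all 32851 windows. CACCTG was in 10 of 33 member windows (30.3%), beside 17.2% of all windows, and the shares were not tested against each other. The members with CACCTG had differences of either sign. These were positive for Cd151, Itga3, Itga9, Itgb5 and Itgb6 and negative for Dst, Frem1, Itgb8, Lama5 and Lamb3. The motifs do not overlap each other in letters in the sequences shown. Matches describe letters only and do not show binding. Frem1 and Dst had more than 1 annotated start, and for each the window shown is one that held a motif. The sequences shown are therefore not a sample of windows. Each sequence reads 5′ to 3′ on the gene's strand, with motif matches in capitals: Dst at chr1:34160010-34160259 (plus strand), Itgb8 at chr12:119238277-119238526 (minus strand) and an internal start of Frem1 at chr4:83021103-83021352 (minus strand), all of GRCm38.p6.
Dst: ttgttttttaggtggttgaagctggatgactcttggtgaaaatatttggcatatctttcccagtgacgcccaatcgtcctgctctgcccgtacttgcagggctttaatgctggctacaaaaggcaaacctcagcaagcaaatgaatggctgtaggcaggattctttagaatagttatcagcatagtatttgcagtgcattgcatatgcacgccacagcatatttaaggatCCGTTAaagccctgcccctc
Itgb8: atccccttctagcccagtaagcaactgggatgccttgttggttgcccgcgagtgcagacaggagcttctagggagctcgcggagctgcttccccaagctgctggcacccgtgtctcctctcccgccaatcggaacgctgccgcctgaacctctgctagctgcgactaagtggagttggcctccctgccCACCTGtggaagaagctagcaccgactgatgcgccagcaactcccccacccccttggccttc
Frem1: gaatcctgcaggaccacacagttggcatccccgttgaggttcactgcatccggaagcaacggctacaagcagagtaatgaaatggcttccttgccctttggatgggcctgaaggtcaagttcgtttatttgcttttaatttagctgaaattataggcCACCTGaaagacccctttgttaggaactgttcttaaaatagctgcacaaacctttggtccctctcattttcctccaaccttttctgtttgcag
The Dst window held CCGTTA at position -20 from the start, and the windows of Itgb8 and Frem1 held CACCTG at positions -62 and -93 from it. The other annotated start of Frem1 had neither motif in its window, and the other start of Dst had CACCTG. Of the other 2 Fraser complex genes, Frem2 had a window with neither motif.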

How the data were processed

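Per the submitters' processing notes, the authors made the deposited intensity values, 1 per probe set and array on a linear scale, with Affymetrix Expression Console 1.1.1 and PLIER 2.0. The normalisation between arrays and the probe sets' genome build are, in the sources used here, not given. Of 35557 probe sets, 21789 had a single gene symbol in the platform annotation, and 21698 of these were matched to RefSeq (GRCm38.p6) by Entrez number. Values were taken to log2(intensity + 16) with no further normalisation, which shrinks the differences of dim genes. The brightest probe set stood for a gene, and genes with a mean under the 25th percentile (7.32) were left out.

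Ovol2 BT was set against control in limma 3.58.1 (R 4.3.3, all 4 arrays, intensity trend in eBayes, two-sided), with Benjamini-Hochberg adjustment over 14953 genes and a threshold of 0.05. Exact permutation, for which 0.333 is the smallest p here, was not used. The number of arrays limits the precision. The labels call the arrays biological replicates. Members and lists were chosen with earlier results of these data known. Named genes were all members, Ovol2, and in each other list the genes past the threshold or else those with the largest differences; others were named after their values were seen. A crossed pairing and a trend with genomic span were alternatives added after seeing the data.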

Additional observations from a re-analysis of the deposited data

How the results depend on the processing

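No member passed under any of 13 alternatives that kept all arrays (lowest adjusted p 0.662), and 26 of 34 members kept their sign there. The rest were near 0. With quantile normalisation Lama4 was -0.01 (-0.0121), Lamb1 -0.00255 and Nid1 -0.00385; with cyclic loess Lama4 was -0.00265, Nid1 -0.000345 and Col4a5 -0.04 (-0.0424). With median centring Col17a1 was 0.01 (0.0123), Lamb2 0.05 (0.0479), Lamb3 0.02 (0.0184) and Lamc1 0.00123, and with a trend with genomic span removed, added after seeing the data, Lamb3 was 0.00239 and Lamc1 0.03 (0.0277). The cause of these shifts was not tested. Planned removal of a trend with transcript length was not run, for want of lengths.

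Over all genes tested, 7 passed with median centring, 0 with cyclic loess (686 at an unadjusted p under 0.05), 0 with a variance without trend (601) and 9 under a replicate block, where 0 members passed. The replicate gaps of the genotypes correlated at -0.17 over the genes tested, and nothing in the labels pairs arrays by number. The Y-linked signal did split by replicate number in both genotypes, and the main fit, which has no block, leaves that split in its error. A crossed pairing, added after seeing the data, called 5 genes and 0 members. Leaving out arrays gave between 4 and 2432 calls over all genes, between 0 and 6 members and a members' median between -0.13 and 0.07.

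Leaving out 1 array in turn changed the sign of 17 members, whose differences then lay between -0.22 and 0.31 for Itga3, -0.0834 and 0.18 for Itgb5, -0.0919 and 0.17 for Fermt1, -0.11 and 0.13 for Lama4, -0.0987 and 0.16 for Lamb1, -0.13 and 0.15 for Col4a5, -0.28 and 0.11 for Itga6, -0.21 and 0.11 for Col17a1 and -0.0987 and 0.0672 for Lamb2. The rest of these lay between -0.36 and 0.27 for Lamb3, -0.21 and 0.0884 for Lamc1, -0.0328 and 0.0469 for Nid1, -0.39 and 0.0311 for Col7a1, -0.52 and 0.13 for Itgav, -0.69 and 0.13 for Itgb1, -0.0705 and 0.45 for Plec and -0.0956 and 0.26 for Col4a2. The other 17 kept their sign in all 17 alternatives.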
